A study of Arabidopsis thaliana with 8 samples.

Results

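The genes specific to monolignol synthesis encode the steps of the lignin pathway that lie between the CoA ester of p-coumarate and the finished monolignols, the alcohols from which lignin is built. They were taken as 10 listed Arabidopsis thaliana loci, those of HCT, CYP98A3, CSE, CCoAOMT1, CCR1, CCR2, F5H1, COMT1, CAD4 and CAD5, out of 25410 loci that the array's probes name, and 19 of the 43603 non-control probes read them. All 10 passed the filter on dim probes and are among the 19609 genes tested. Expression was measured on 8 single-colour Agilent arrays of bulk stems of 10 cm length. Of the 8 arrays, 4 came from CEF2-VP16 nst1 nst3 stems, which carry the construct NST3pro:CEF2-VP16:HSP in the nst1-1 nst3-1 double mutant, and 4 from nst1-1 nst3-1 stems without it (called nst1 nst3). Both groups are in the Col0 background and both carry the nst1-1 and nst3-1 mutations, in NAC transcription factors that switch on secondary walls in fibers. The promoter of NST3, active mainly in fibers, drives the construct, in which an AP2/ERF factor, named CEF2 in the labels and ERF035 in the design text, is joined to the viral activation domain VP16. The labels do not say how many transgenic lines or plants were used, and the spread behind the p-values is that between these samples alone and may be technical.

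Monolignol synthesis works as a short metabolic grid. HCT joins p-coumarate to shikimate, CYP98A3 hydroxylates the ring of that ester, and CSE frees caffeate from it. CCoAOMT1 methylates the caffeoyl CoA ester, the CCR enzymes reduce CoA esters to aldehydes, and the CAD enzymes reduce aldehydes to alcohols. F5H1 and COMT1 hydroxylate and methylate the ring again, which leads from guaiacyl units to the syringyl units typical of fiber lignin, while vessel lignin is mostly guaiacyl. In bulk stems, fewer cells of a type and less RNA per cell cannot be told apart.

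ERF035 (AT3G60490) read 4.06, 4.05, 4.17 and 4.27 on the 4 CEF2-VP16 nst1 nst3 arrays and -3.07, -2.38, -5.87 and -2.99 on the 4 nst1 nst3 arrays (log2 of the processed signal after division by the 75th percentile of its array, so that 0 stands for that percentile). Whether this signal came from the construct or from the plant's own gene was not tested. All levels below are on this scale, and all changes are the CEF2-VP16 nst1 nst3 mean minus the nst1 nst3 mean in log2 units. The 75th percentile lay between 2344 and 3255 units on the CEF2-VP16 nst1 nst3 arrays and between 2774 and 3642 on the nst1 nst3 arrays. Each genotype lay on a slide of its own, so slide and genotype cannot be told apart. Arrays correlated at 0.987 to 0.994 within the CEF2-VP16 nst1 nst3 group and at 0.953 to 0.987 within the nst1 nst3 group, where arrays 2 and 3 stood furthest from the rest. Of the 19609 genes, 54.2% differed between the genotypes (limma, Benjamini-Hochberg adjusted p under 0.05), 29.5% being higher and 24.8% lower in CEF2-VP16 nst1 nst3. Probes for the E1A spike-in, a foreign RNA added to every sample, stood 0.38 to 0.50 log2 units higher relative to the 75th percentile on the CEF2-VP16 nst1 nst3 arrays, so scaling on them instead moved the median gene by -0.42, and changes are given relative to the 75th percentile unless stated.

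Of the 10 monolignol genes, 5 were higher and 4 lower in CEF2-VP16 nst1 nst3 stems, and 1 did not pass. Of all genes, 29.5% were higher and 24.8% lower. CYP98A3, CSE, F5H1, CAD4 and HCT were the higher ones. CCR2, COMT1, CAD5 and CCR1 were the lower ones, and CCoAOMT1 did not pass. The changes of CYP98A3, F5H1 and CAD4 were at least 2-fold upward, against 10.7% of all genes, and that of CCR2 at least 2-fold downward, against 10.5% of all genes. In 8 of the 10 genes no array of one genotype fell within the range of the other, against 50.7% of all genes (27.9% with CEF2-VP16 nst1 nst3 higher and 22.7% lower); 5 of the 8 were higher and 3 lower. The median change of the 10 genes was 0.16, beside 0.03 for all genes tested. With spike-in scaling 4 of the 10 were higher, against 10.9% of all genes, and 4 lower, against 40.0%. CYP98A3, CSE, F5H1 and CAD4 rose under both scalings, and CCR1, CCR2, COMT1 and CAD5 fell under both.

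**Figure D1:**
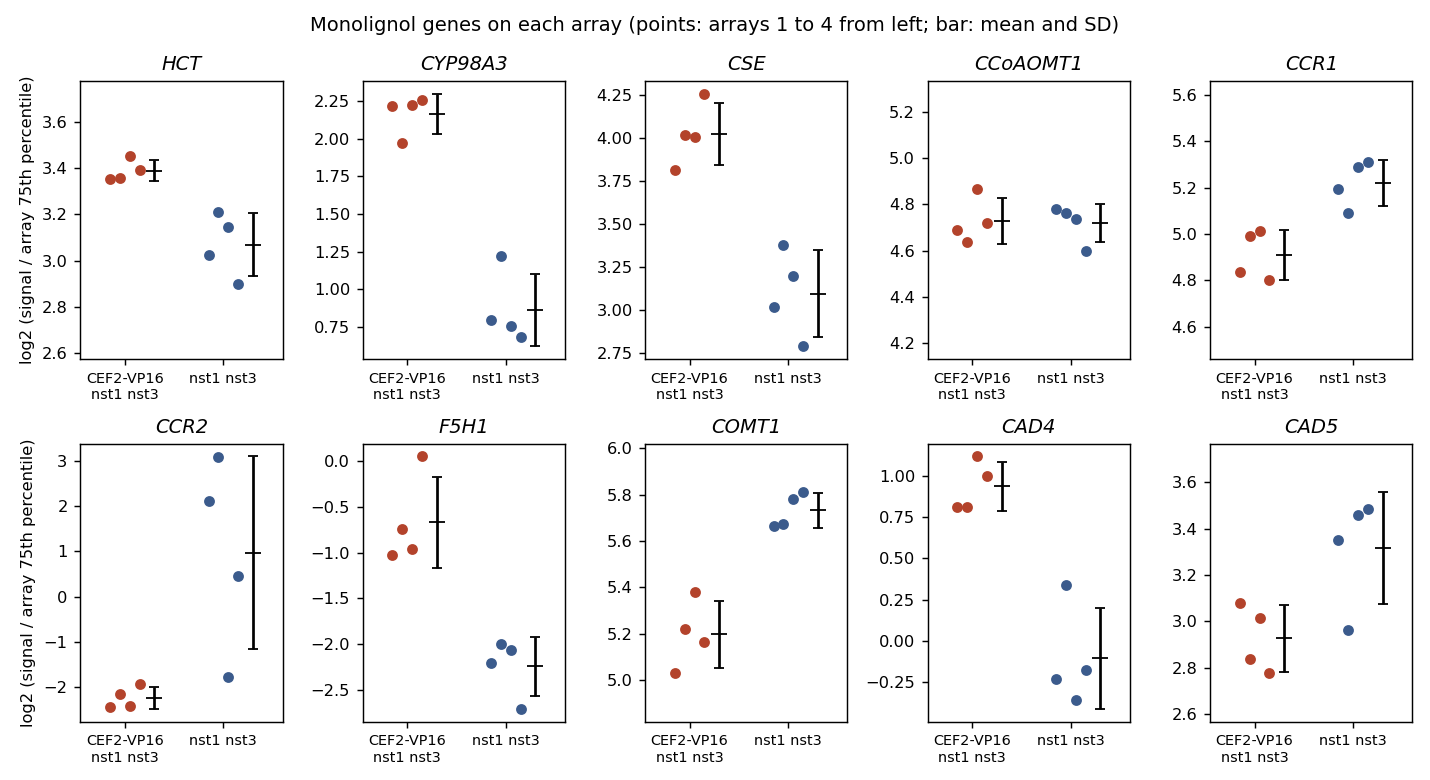
Level of each of the 10 genes on every array, on the log2 scale relative to the 75th percentile (vertical axis, its own range for each gene), with CEF2-VP16 nst1 nst3 arrays on the left in red and nst1 nst3 arrays on the right in blue. Points run from array 1 to 4 and bars give the mean and SD (n = 4); CCoAOMT1 and CAD5 are the 2 genes whose groups overlap, and the nst1 nst3 arrays of CCR2 spread from -1.77 to 3.09.

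The 3 genes of the shikimate ester steps were all higher in CEF2-VP16 nst1 nst3. CYP98A3 (AT2G40890), the ring hydroxylase, read 2.22, 1.97, 2.22 and 2.25 in CEF2-VP16 nst1 nst3 and 0.80, 1.22, 0.75 and 0.68 in nst1 nst3. Every CEF2-VP16 nst1 nst3 array was above every nst1 nst3 array, and nst1 nst3 array 2 lay nearest to them. CYP98A3 rose by 1.30 ± 0.13 (SE, n = 4 per group), a 2.47-fold change with a 95% interval of 1.99 to 3.05 (limma adjusted p = 0.000201). Its second probe gave 1.08 ± 0.23.

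CSE (AT1G52760), the caffeoyl shikimate esterase, read 3.82, 4.02, 4.01 and 4.26 in CEF2-VP16 nst1 nst3, against 3.02, 3.38, 3.20 and 2.79 in nst1 nst3. The groups did not overlap, and CSE rose by 0.93 ± 0.15, or 1.90-fold (95% interval 1.50 to 2.41; adjusted p = 0.00129). HCT (AT5G48930), the transferase that makes the shikimate ester, read 3.35, 3.36, 3.45 and 3.39 in CEF2-VP16 nst1 nst3 and 3.02, 3.21, 3.14 and 2.90 in nst1 nst3. Its rise was the smallest of the 5, at 0.32 ± 0.09 or 1.25-fold (adjusted p = 0.0149), although its groups did not overlap. The other 2 probes of HCT read 0.18 ± 0.15 and 0.13 ± 0.18 and did not pass (adjusted p = 0.340 and 0.563), and with spike-in scaling HCT read -0.12 (adjusted p = 0.548).

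Neither methyltransferase gene was higher in CEF2-VP16 nst1 nst3. CCoAOMT1 (AT4G34050), which methylates caffeoyl CoA, read 4.69, 4.64, 4.87 and 4.72 in CEF2-VP16 nst1 nst3 and 4.78, 4.76, 4.74 and 4.60 in nst1 nst3. The groups overlapped over most of their range, and the change was 0.01 ± 0.08 with a 95% interval of 0.883-fold to 1.15-fold (adjusted p = 0.935). With spike-in scaling it read -0.43 and did not pass (adjusted p = 0.0513). COMT1 (AT5G54160), the methyltransferase of the syringyl branch, read 5.03, 5.22, 5.38 and 5.16 in CEF2-VP16 nst1 nst3, against 5.67, 5.67, 5.78 and 5.81 in nst1 nst3. All 4 nst1 nst3 arrays stood above all 4 CEF2-VP16 nst1 nst3 arrays. COMT1 fell by 0.54 ± 0.09, to 0.690 of the nst1 nst3 level (95% interval 0.595 to 0.801; adjusted p = 0.00196).

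COMT1 had the most probes, 4, and all 4 passed as lower, with changes from -0.55 to -0.43. None of the spots of the 19 probes was saturated on any array. The change of COMT1 minus that of CCoAOMT1 was -0.54: within an array, the log2 difference between them ran from 0.34 to 0.58 in CEF2-VP16 nst1 nst3 and from 0.89 to 1.21 in nst1 nst3. Such a difference also holds the brightness of the probes, so only its change between the genotypes is read. A two-sided exact permutation test, with 70 ways to assign the arrays, gave p = 0.0286, the smallest it can give, and 0.0381 after Benjamini-Hochberg adjustment over the 4 pairs of genes compared. The call was lost without any 1 of the 4 CEF2-VP16 nst1 nst3 arrays (exact permutation test, adjusted p = 0.0571 each). That adjusted p also depends on the p-values of the other pairs. With any 1 array left out, the difference itself ran from -0.59 to -0.48. With spike-in scaling the pair differed by -0.54 as well, since scaling shifts both genes alike.

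F5H1 (AT4G36220), the hydroxylase that opens the syringyl branch, had the largest rise of the 10 genes. It read -1.03, -0.75, -0.96 and 0.05 in CEF2-VP16 nst1 nst3, against -2.20, -2.00, -2.06 and -2.71 in nst1 nst3. CEF2-VP16 nst1 nst3 array 4 was the highest and nst1 nst3 array 4 the lowest, and the groups did not overlap. The rise was 1.57 ± 0.26, or 2.97-fold (95% interval 1.95 to 4.51; adjusted p = 0.00166), and it was 1.33 to 1.69 when any 1 array was left out. The 2 genes of the syringyl branch moved in opposite directions. F5H1 changed by 2.10 log2 units more than COMT1, with differences from -6.34 to -5.12 in CEF2-VP16 nst1 nst3 and from -8.52 to -7.67 in nst1 nst3 (exact permutation p = 0.0286, adjusted 0.0381). That call too was lost without any 1 CEF2-VP16 nst1 nst3 array (exact permutation test, adjusted p = 0.0571 each). Here too the adjusted p depends on the other pairs as well. The difference itself ran from 1.85 to 2.26 with any 1 array left out.

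Both cinnamoyl CoA reductase genes were lower in CEF2-VP16 nst1 nst3. CCR1 (AT1G15950), the reductase of developmental lignification, read 4.84, 4.99, 5.01 and 4.80 in CEF2-VP16 nst1 nst3 and 5.19, 5.09, 5.29 and 5.31 in nst1 nst3. The groups stood apart by a narrow margin, and CCR1 fell by 0.31 ± 0.09, to 0.806 of the nst1 nst3 level (adjusted p = 0.0178). Its second probe, designed on another transcript of the gene, gave -0.30 ± 0.09. The call was lost without CEF2-VP16 nst1 nst3 array 4 (-0.27; adjusted p = 0.0522).

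CCR2 (AT1G80820), the reductase known for its induction by pathogens, read -2.45, -2.16, -2.42 and -1.93 in CEF2-VP16 nst1 nst3 and 2.11, 3.09, -1.77 and 0.46 in nst1 nst3. The CEF2-VP16 nst1 nst3 arrays lay close together, whereas the nst1 nst3 arrays spread widely and array 3 came close to the highest CEF2-VP16 nst1 nst3 array. CCR2 fell by 3.21 ± 0.93, which makes nst1 nst3 9.26-fold higher on average (95% interval of the log2 change -5.35 to -1.07; adjusted p = 0.0194). Its change was larger in size than that of 97.7% of all genes tested. Without nst1 nst3 array 3 it was -4.13, without array 2 it was -2.50, and without array 1 it was -2.83 and did not pass (adjusted p = 0.0541). The difference between the changes of CCR2 and CCR1, -2.90, did not pass the exact permutation test (p = 0.0571, adjusted 0.0571). The difference ran from -7.43 to -6.73 in CEF2-VP16 nst1 nst3 and from -7.06 to -2.00 in nst1 nst3, where array 3 was the lowest.

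**Figure D2:**
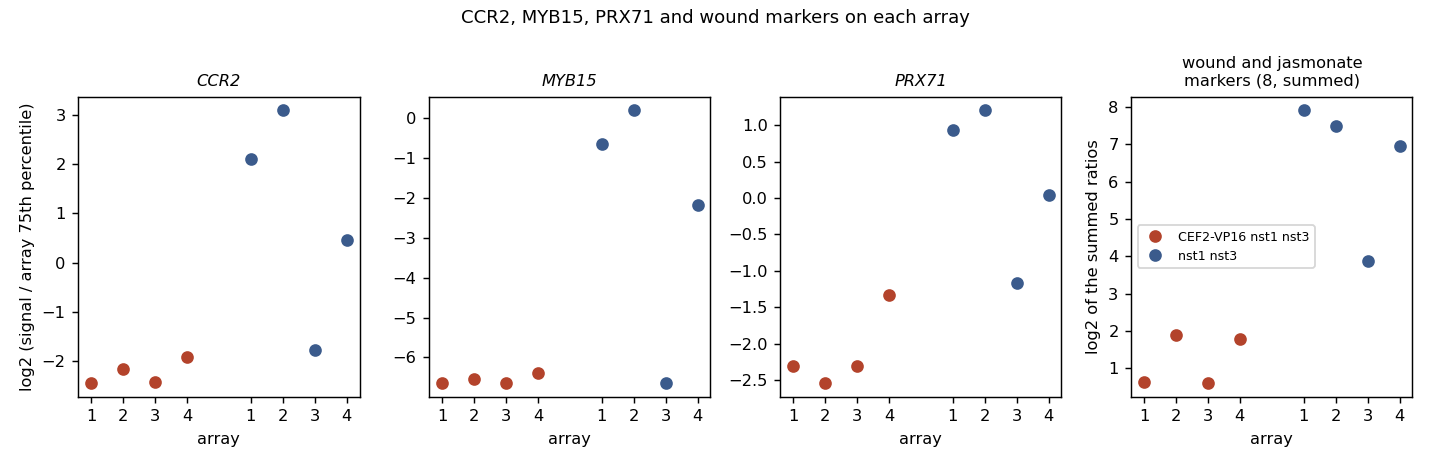
Levels of CCR2, MYB15 and PRX71 on each array (log2 scale relative to the 75th percentile) and, in the right panel, log2 of the summed ratios of 8 wound and jasmonate genes; CEF2-VP16 nst1 nst3 arrays are red and stand left of the nst1 nst3 arrays in blue. In all 4 panels nst1 nst3 array 3 is the lowest of its group, as it is for 22.6% of all genes tested.

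Wound and jasmonate genes were measured beside CCR2. A list of 8 (JAZ7, JAZ10, LOX3, LOX4, WRKY40, RRTF1, CYP94B3 and XTH22), chosen with their fall in these data known, had all 8 members lower in CEF2-VP16 nst1 nst3. Their summed signal, in multiples of the 75th percentile, was 1.55, 3.72, 1.52 and 3.44 in CEF2-VP16 nst1 nst3, against 241, 180, 14.8 and 125 in nst1 nst3. Array 3 was the lowest of the nst1 nst3 group for this sum and for CCR2, while arrays 1 and 2 were the highest for both. MYB15, a factor that switches on lignin genes in defence, and PRX71, a class III peroxidase, placed the nst1 nst3 arrays in the same order as CCR2 (2, 1, 4, 3), as did 6.99% of all genes tested. PAL2, below, had that order too, and so had genes that were higher in CEF2-VP16 nst1 nst3, among them C4H, LAC4, MYB46 and the vessel marker VND6. Of the 8 wound and jasmonate genes 3 had it (JAZ10, LOX3 and LOX4), so the order is not particular to genes that fell. The part of the wound and jasmonate genes in the fall of CCR2 was not tested.

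The 2 alcohol dehydrogenase genes of lignification moved in opposite directions. CAD4 (AT3G19450) read 0.81, 0.81, 1.12 and 1.00 in CEF2-VP16 nst1 nst3, against -0.23, 0.34, -0.36 and -0.17 in nst1 nst3. All CEF2-VP16 nst1 nst3 arrays were above all nst1 nst3 arrays, of which array 2 was the nearest. CAD4 rose by 1.04 ± 0.16, or 2.06-fold (95% interval 1.60 to 2.66; adjusted p = 0.0011), and its other 2 probes gave 1.12 ± 0.16 and 0.57 ± 0.15, both past the threshold.

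CAD5 (AT4G34230) read 3.08, 2.83, 3.02 and 2.78 in CEF2-VP16 nst1 nst3 and 3.35, 2.96, 3.46 and 3.49 in nst1 nst3. The groups overlapped through nst1 nst3 array 2, which lay below 2 CEF2-VP16 nst1 nst3 arrays. CAD5 fell by 0.39 ± 0.14, to 0.764 of the nst1 nst3 level (adjusted p = 0.0406), a call that was lost in 6 of the 8 leave-one-out fits. These 6 lacked nst1 nst3 array 1, 3 or 4 or CEF2-VP16 nst1 nst3 array 2, 3 or 4, and the change ran from -0.51 to -0.33 over all 8. The change of CAD5 minus that of CAD4 was -1.43, with differences of 1.78 to 2.26 in CEF2-VP16 nst1 nst3 and 2.62 to 3.82 in nst1 nst3 (exact permutation p = 0.0286, adjusted 0.0381). Without any 1 CEF2-VP16 nst1 nst3 array this difference did not pass (exact permutation test, adjusted p 0.0571 to 0.0762). Whether probes of CAD4 and CAD5, or of CCR1 and CCR2, also bind the relative's transcript was not tested.

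**Figure D3:**
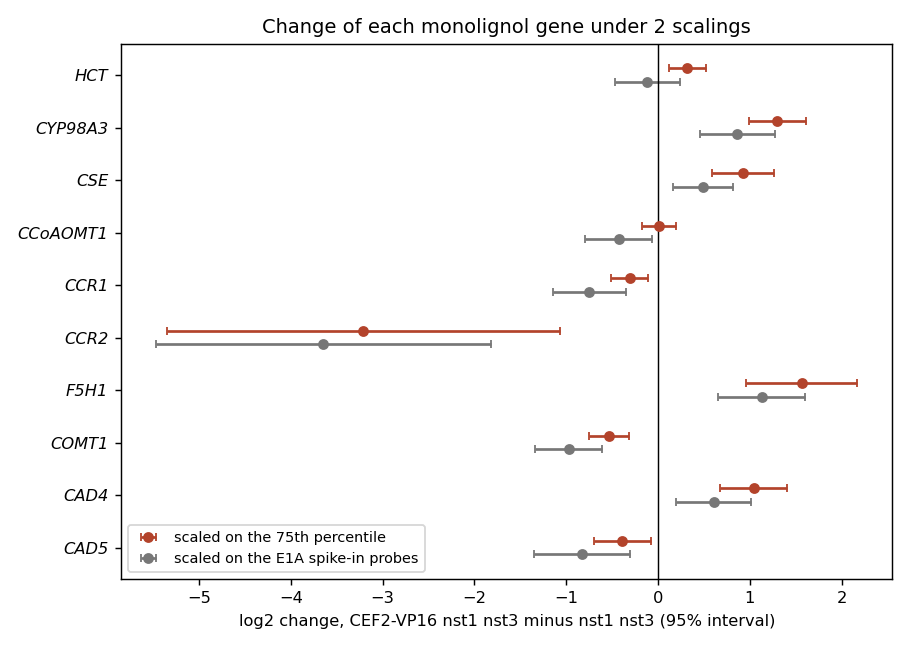
Change of each gene in log2 units, CEF2-VP16 nst1 nst3 minus nst1 nst3, with 95% intervals, scaled on the 75th percentile (red) or on the E1A spike-in probes (grey). Spike-in scaling moves every gene to the left by a similar step; HCT and CCoAOMT1 change sign, to -0.12 and -0.43, and pass in neither case with that scaling.

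Among the 19 probes, all above background on all 8 arrays, 8 were higher, 8 lower and 3 neither, against 27.0% higher and 23.8% lower of all probes tested on their own. Of the 5 genes with several probes, none had probes that passed in opposite directions, and HCT was the gene whose probes differed in their call. The brightest usable probe stood for each gene in the fit across genes. Changes ran from 0.57 to 1.12 over the probes of CAD4, from 0.13 to 0.32 over those of HCT and from 1.08 to 1.30 over those of CYP98A3. Both probes of CCR1 and all 4 of COMT1 passed as lower.

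**Figure D4:**
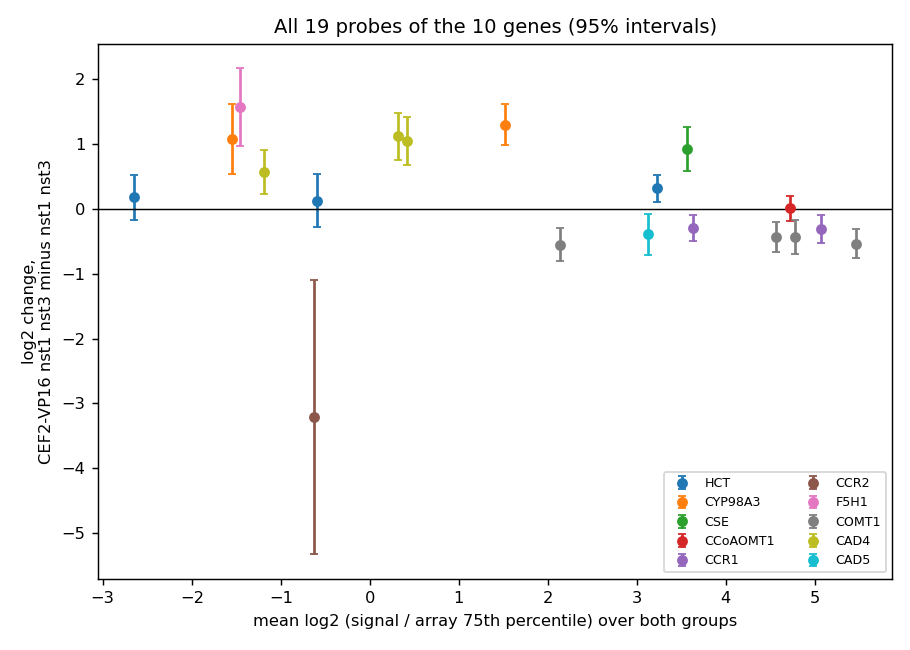
Change of each of the 19 probes (vertical axis, log2 units, CEF2-VP16 nst1 nst3 minus nst1 nst3, with 95% intervals) against its mean level over both groups (horizontal axis, log2 scale relative to the 75th percentile), coloured by gene. Probes of 1 gene fall on the same side of 0; CCR2 stands apart at -3.21 with the widest interval.

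The nst1 nst3 arrays differed in how near they lay to the other group. For 7 of the 9 called genes (HCT, CYP98A3, CSE, CCR1, F5H1, CAD4 and CAD5), nst1 nst3 array 2 lay nearest to the CEF2-VP16 nst1 nst3 mean. The same array was the nearest for 52.1% of all called genes. COMT1 was nearest on array 1 and CCR2 on array 3. Leaving out nst1 nst3 arrays 2 and 3 together, a choice made after seeing the data, kept all 5 higher and all 4 lower calls.

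The genes most like the members over the 8 arrays were found by Pearson's r, which with 8 arrays in 2 groups mostly reads the difference between the groups. CYP98A3 was most like SAHH2, an adenosylhomocysteinase gene of the methyl cycle (r = 0.9986), and 2026 genes had an r over 0.95 with it. F5H1 was most like ALDH2B7, an aldehyde dehydrogenase gene (r = 0.9962), with 394 genes over 0.95. CCR2 was most like AT1G44790 (r = 0.9981), with 250 genes over 0.95. CCoAOMT1 had 1 gene over 0.95, AT1G50790 (r = 0.9585). These are descriptions over arrays that share slide and genotype.

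The other genes of lignin metabolism, 81 in 8 lists, gave 72 tested genes, of which 23 were higher and 18 lower in CEF2-VP16 nst1 nst3, or 10 higher and 28 lower with spike-in scaling. Both splits are close to the shares over all genes, 29.5% higher and 24.8% lower, or 10.9% and 40.0% with spike-in scaling. Upstream of the monolignol genes, the entry enzymes PAL, C4H and 4CL had 2 of 9 genes higher, 2 lower and a median change of -0.09. PAL2, which makes cinnamate from phenylalanine, fell by 1.30 ± 0.20 and 4CL5, a CoA ligase, by 0.75 ± 0.14, whereas PAL3 rose by 0.96 ± 0.26 (adjusted p = 0.00109, 0.00314 and 0.0158). Scaled on the spike-in, 6 of the 9 fell and none rose. Of 12 genes that supply shikimate and phenylalanine 4 were higher and 2 lower, with a median of 0.12, but 1 was higher and 4 lower with spike-in scaling, with a median of -0.32. Arogenate dehydratase genes lay at both ends, with ADT3 up by 1.47 ± 0.20, ADT1 up by 0.58 ± 0.14 and ADT5 down by 1.47 ± 0.22 (adjusted p = 0.000652, 0.00798 and 0.000952). ADT1 did not pass with spike-in scaling, at 0.14 (adjusted p = 0.555).

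The methyl donor cycle, which feeds both methyltransferase steps, had 5 of 7 genes higher, none lower and a median of 0.82, or 2 higher and none lower with spike-in scaling. The shares over all genes were 29.5% higher and 24.8% lower, or 10.9% and 40.0% with spike-in scaling. ADK1, an adenosine kinase, rose by 1.53 ± 0.18, SAHH1, an adenosylhomocysteinase, by 0.96 ± 0.12, and METS1, a methionine synthase, by 0.91 ± 0.16 (adjusted p = 0.000360, 0.000354 and 0.00180). With spike-in scaling ADK1 and SAHH1 passed, at 1.09 and 0.53, and METS1 did not, at 0.48.

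Of 10 tested close relatives of the members, 2 were higher and 3 lower, with a median of -0.18. That is near the shares over all genes, 29.5% higher and 24.8% lower. CAD9, a relative of CAD4 and CAD5, rose by 3.53 ± 0.47, reading 1.99 to 2.59 in CEF2-VP16 nst1 nst3 and -2.32 to 0.09 in nst1 nst3 (adjusted p = 0.000603). That change was larger than any of the 10 members showed in the upward direction. CCoAOMT7, a relative of CCoAOMT1, fell by 1.55 ± 0.24 and CRL1, a CCR-like gene, by 1.26 ± 0.14 (adjusted p = 0.00118 and 0.000283). The 6 relatives that did not pass the filter on dim probes or had no named probe were CYP98A8, CYP98A9, CAD3, CAD7, TSM1 and SHT.

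Downstream and in side branches each list had more genes lower than higher. Over all genes 29.5% were higher and 24.8% lower, or 10.9% and 40.0% with spike-in scaling. Of 10 genes of monolignol glucosides and side branches 1 was higher and 4 lower, with a median of -0.67, or none higher and 6 lower with spike-in scaling. UGT72E2 and UGT72E3, which add glucose to monolignols, fell by 2.79 ± 0.60 and 1.80 ± 0.42, and BGLU45, a glucosidase that can release monolignols, fell by 0.67 ± 0.18 (adjusted p = 0.00547, 0.00809 and 0.0140). UGT72E2 was above background on 3 of the 4 CEF2-VP16 nst1 nst3 arrays. On array 4 of that group it read -6.64, the floor, so the size of its fall depends in part on that floor. REF1 was the gene of this list that was higher, at 0.59 ± 0.13 (limma adjusted p = 0.0058). With spike-in scaling REF1 did not pass, at 0.15. Of 8 laccases and peroxidases 2 were higher and 3 lower, with a median of -0.19, or 1 higher and 4 lower with spike-in scaling. The 2 higher genes were the laccases LAC17, at 1.196 ± 0.259, and LAC4, at 0.622 ± 0.21 (limma adjusted p = 0.00551 and 0.0355). The groups of LAC17 did not overlap, whereas those of LAC4 did. With spike-in scaling LAC17 still passed, at 0.76 (limma adjusted p = 0.0288), and LAC4 did not, at 0.186. PRX25 fell by 2.99 ± 0.24, PRX71 by 2.38 ± 0.52, and PRX52 was lower too (limma adjusted p = 8.18e-05, 0.00590 and 2.38e-05). PRX52 was not well above background on any CEF2-VP16 nst1 nst3 array, and its nst1 nst3 mean lay 5.68-fold above the mean detection limit there. That limit is the lowest signal well above background on each CEF2-VP16 nst1 nst3 array. Of 5 tested genes of the flavonoid branch, which draws on the same CoA ester as HCT, 3 were lower and none higher, with a median of -0.74, or 4 lower and none higher with spike-in scaling. The 3 were F3H at -1.69 ± 0.35, CHS, the first enzyme of that branch, at -1.61 ± 0.53, and CHI at -0.52 ± 0.15 (adjusted p = 0.00439, 0.0321 and 0.0174).

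Regulators of lignin genes had the highest median of the 8 lists, at 1.12, with 7 of 11 higher and 1 lower, or 4 higher and 1 lower with spike-in scaling. Over all genes the shares were 29.5% and 24.8%, or 10.9% and 40.0%. This list holds activators together with the repressors MYB4, MYB32 and MYB7, so its median and counts are not those of activators alone. MYB32 was among the 7 higher genes, at 1.12 ± 0.31, while MYB4 and MYB7 did not pass, at 1.14 ± 0.66 and 0.12 ± 0.16. MYB61 rose by 3.40 ± 0.46 and MYB58, an activator of lignin genes, by 2.44 ± 0.28 (adjusted p = 0.000640 and 0.000304). MYB58 read -1.71, -1.76, -1.54 and -1.53 in CEF2-VP16 nst1 nst3 and -4.87, -3.44, -3.76 and -4.21 in nst1 nst3, so its groups did not overlap. MYB15 was not well above background on any CEF2-VP16 nst1 nst3 array. Its nst1 nst3 mean lay 18.8-fold above the mean detection limit of those arrays, set as for PRX52. The 95% interval of its log2 change was wide, -7.29 to -1.20 (limma adjusted p = 0.0262). On nst1 nst3 arrays MYB15 read -0.64, 0.20, -6.64 and -2.17, so array 3 lay among the CEF2-VP16 nst1 nst3 arrays, which ran from -6.64 to -6.38.

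**Figure D5:**
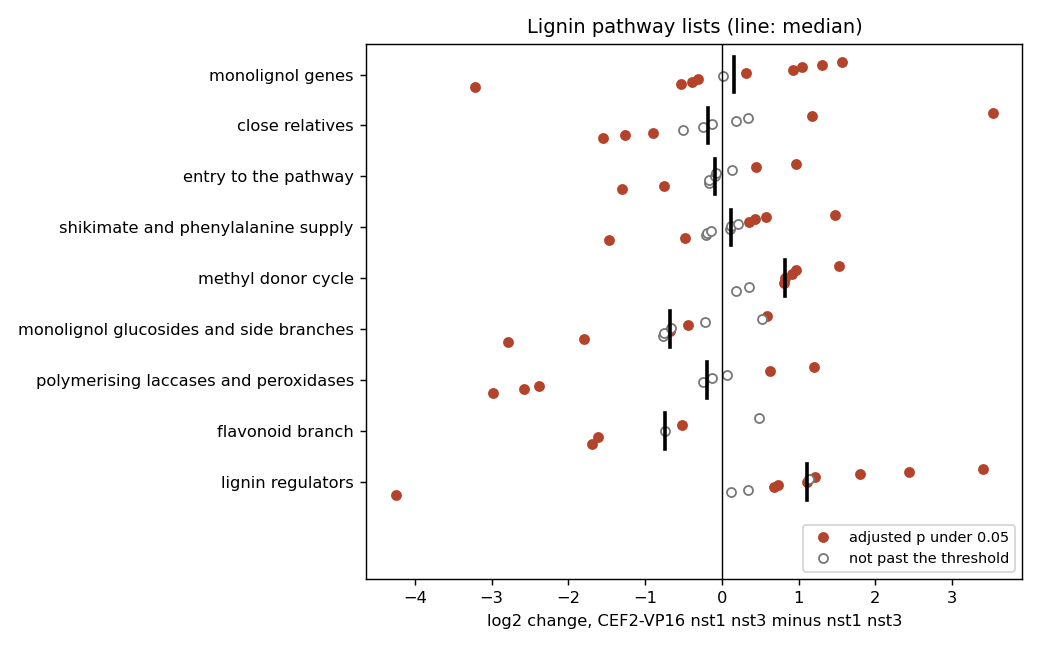
Change of each tested gene in log2 units, CEF2-VP16 nst1 nst3 minus nst1 nst3 (horizontal axis), in 9 lists of lignin metabolism, 1 per row; filled points passed the threshold (limma adjusted p under 0.05), open points did not, and the vertical line is the list's median. The monolignol genes spread from -3.21 to 1.57, the methyl donor genes all lie right of 0, and the widest spread is that of the regulators, from -4.24 to 3.40.

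Markers of the vessels, which lignify in these stems, moved both ways. Beside the counts of markers below, 29.5% of all genes were higher and 24.8% lower, or 10.9% and 40.0% with spike-in scaling. Of 6 vessel markers (VND6, VND7, XCP1, XCP2, RNS3 and BFN1) 4 were higher and 1 lower, and none was below background on any array. Their summed signal was 37.2 to 42.5 times the 75th percentile in CEF2-VP16 nst1 nst3 and 22.7 to 36.2 in nst1 nst3. All 3 secondary wall cellulose synthase genes (CESA4, CESA7 and CESA8) were higher, with sums of 12.0 to 15.2 in CEF2-VP16 nst1 nst3 and 6.40 to 10.3 in nst1 nst3. With spike-in scaling 2 vessel markers were higher and 2 lower, and none of the 3 cellulose synthase genes passed. Sums for 3 phloem markers were 16.6 to 21.0 in CEF2-VP16 nst1 nst3 and 18.1 to 18.3 in nst1 nst3, for 3 epidermis markers 4.06 to 4.69 and 2.86 to 3.27, and for 2 green tissue markers 438 to 589 and 335 to 462, in the same order of groups. With spike-in scaling 2 of the 3 phloem markers were lower, and no epidermis or green tissue marker passed. The epidermis marker PDF1 was above background on 3 of the 4 CEF2-VP16 nst1 nst3 arrays. The part of cell makeup in the changes of the monolignol genes was not tested.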

How the data were processed

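Per the labels' protocols, 200 ng of total stem RNA was labelled with Cy3 and hybridised in a single colour. The deposited intensity values were made with Agilent Feature Extraction 11.5.1.1 and a TAIR10 grid, per the file headers, whereas version 9.1.3.1 stands in the submitters' processing notes. The authors' deposited value table holds natural log values, equal to those of the processed signal less a constant of 7.15 (CEF2-VP16 nst1 nst3) or 7.39 (nst1 nst3), and served as an alternative.

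The processed signal was divided by the array's 75th percentile across 43603 non-control probes, floored at 0.01 after this scaling and put on the log2 scale. Outlier spots were dropped, then spots of the same probe averaged. Probes above background on at least 4 of 8 arrays were kept, named by RefSeq accession through a TAIR10.1 gene table (34348 probes, 25410 loci), and the brightest stood for its gene. Genes were fitted with limma 3.58.1 in R 4.3.3 without covariates, with Benjamini-Hochberg adjustment over 19609 genes and calls under 0.05; SE and 95% intervals are those of the moderated fit. The fit was tested on simulated data. Differences between paired genes were tested with an exact permutation test. Precision is limited by the 4 arrays a group.

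The members and lists were chosen with earlier results of these data known. Named genes are all members with all their probes and, from each lignin list, up to 3 called genes with the largest change. Further list genes are named where they show the other direction, the makeup of a list or the order of arrays. Alternatives were other scalings (median, spike-in, quantile), normexp on the median signals (the mean signal was not used here), the authors' table, other filters and floors, other probe rules, other moderation, array weights, a replicate block and leaving out arrays.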

Additional observations from a re-analysis of the deposited data

Results flagged for a closer look

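CYP98A3 read 1.97 on CEF2-VP16 nst1 nst3 array 2, below the other 3 arrays of that group, and its gap to them was large for a group of 4 by Dixon's test (gap over range 0.862, above the 95% critical value). The array still stood above every nst1 nst3 array. Of the 20 groups of 4 values tested (10 genes in 2 genotypes) it was the 1 that passed, and chance flags about 1 in 20.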

How the results depend on the processing

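CYP98A3, CSE, F5H1, CAD4 and COMT1 kept their direction and their call under all 21 alternatives run on them. With spike-in scaling HCT changed sign to -0.12, the 8 lignin lists gave 10 higher and 28 lower genes, and all genes gave 2128 higher and 7848 lower, against 5776 and 4858. With the authors' table, which scales all 4 arrays of a group alike, 2 monolignol genes and 2981 of all genes were lower. HCT, CCR1 and CAD5 did not pass there, although their changes, 0.335, -0.294 and -0.372, were close to those of the main fit. HCT also lost its call when its probes were averaged (0.21), and CAD5 with quantile normalization, normexp or no filter on dim probes (adjusted p = 0.0923, 0.105 and 0.0635). The cause of these losses was not tested. The replicate numbers did not pair the arrays (correlations of same-numbered deviations -0.04, -0.20, 0.16 and -0.40), and with the number as a replicate block 4 monolignol genes were higher and 2 lower.

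Leaving out 1 array gave 2 to 4 lower monolignol genes, with 2 without nst1 nst3 array 1 (CCR2 and CAD5 lost) or CEF2-VP16 nst1 nst3 array 4 (CCR1 and CAD5 lost). The paired differences ran from -3.84 to -2.15 for CCR2 minus CCR1, which passed without nst1 nst3 array 3 (adjusted p = 0.0286), from -1.70 to -1.30 for CAD5 minus CAD4, from 1.85 to 2.26 for F5H1 minus COMT1 and from -0.59 to -0.48 for COMT1 minus CCoAOMT1. The last 3 missed the threshold without any 1 CEF2-VP16 nst1 nst3 array (adjusted p 0.0571 to 0.0762 in the exact permutation test). They passed without any 1 nst1 nst3 array. Each adjusted p depends on the p-values of all 4 pairs and on how few assignments the remaining arrays allow. A missed threshold in these fits therefore does not by itself show that a difference rests on 1 array. Without nst1 nst3 arrays 2 and 3 the same 3 differences read -1.63, 2.32 and -0.58 (adjusted p = 0.0667 each, the smallest that 6 arrays allow in the exact test).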
